A study of Mus musculus with 6 samples.

Results

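Protein phosphatases are enzymes that remove the phosphate groups that kinases add to proteins. The mRNAs of these enzymes and of the subunits that direct them were compared between RNA recovered with an antibody against hnRNPK and the total RNA of the same kind of lysate. The members were every gene of the count tables whose mouse symbol begins with Ppp1 to Ppp6 followed by c, r or f, with Ppm1, with Ptpn and a digit, or with Ptpr and a letter, with pseudogenes left out. Of 139 genes that matched, 10 were pseudogenes, which left 129 members among the 53379 genes of the tables. They comprised 23 catalytic serine/threonine phosphatase genes, 64 regulatory genes and 37 tyrosine phosphatase genes. The other 5 were 4 noncoding genes and Ptprcap, which encodes a protein associated with the receptor phosphatase CD45 and is not itself a phosphatase.

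The libraries came from the mouse insulinoma line Min6, a beta cell model. All cells were at passage 31 and had been held for 30 h in 25 mM glucose with 500 µM palmitic acid, a combination labelled glucolipotoxicity, so both groups carry that treatment and no untreated cells enter the comparison. The 3 hnRNPK IP libraries hold RNA from beads that carried the antibody and were incubated with lysate containing 200 µg of protein, and the 3 total RNA libraries hold RNA from a 10% input of lysate. No control-antibody IP was analysed, and RNA held by the beads or the antibody is counted with RNA held by hnRNPK.

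Serine/threonine phosphatases of the PPP family have few catalytic subunits, and each gains its substrates and its place in the cell from a large set of regulatory subunits. PP1 binds inhibitors and targeting proteins, PP2A joins a scaffold and 1 of several B-type subunits, and calcineurin needs calcium, calmodulin and its B subunit. PPM phosphatases need metal ions and act largely without such subunits, and tyrosine phosphatases carry their targeting domains in the same chain as the catalytic domain, either in the cytoplasm or across the membrane. In beta cells, calcineurin links calcium entry to NFAT-dependent transcription, Ppp1r15a and Ppp1r15b steer PP1 to the translation factor eIF2alpha during stress, and Ptprn and Ptprn2 are membrane proteins of the insulin granule. hnRNPK binds C-rich single-stranded RNA through its KH domains.

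Because of that preference, the most C-rich stretch of 24 bases in the transcript of each of several enriched and depleted members is shown. The members shown are a selection, and no contrast is read from them. Enriched members ranked above Ptpn3 and Ppp3cb but not shown include Ptprt (18 C), Ptprj and Ppp1r9b (17 each), Ppm1h (16), Ppm1l and Ppp2r5d (15 each) and Ppp2r3a (14). Depleted members not shown include Ppp1r12a (19), Ppp2r5a (18), Ppm1a, Ppm1d and Ppm1g (17 each) and Ppm1m (15). Stretches are given 5' to 3', with T for U and runs of at least 3 C in capitals. The sequences are from GENCODE release M21 on GRCm38, and each is given on the strand of its gene.
Ptpn23, enriched: CCCtaCCCacaccagCCCtcaCCC
Ppp1r13l, enriched: gCCCCgCCCCgtcctccgctCCCC
Ppp1r18, enriched: CCCCCCCCCCCCagctCCCagtcc
Ptpn21, enriched: cctgtcctCCCCCCCCCCCCCCCC
Ptpn3, enriched: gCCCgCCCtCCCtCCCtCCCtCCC
Ppp3cb, enriched: CCCCCgCCCCCgCCCCCaccgCCC
Ppp1r14b, depleted: CCCCCgggcgCCCCCgccgccgcc
Ppp1ca, depleted: ggccggCCCatcactccaCCCCgc
Ppp4c, depleted: gtCCCCCCtCCCgcacggaCCCtc
Ppp2cb, depleted: gccgtaagCCCttcgccgcgCCCC
The Ptpn23 stretch (chr9:110389476-110389499, minus strand) lies in the coding sequence and holds 16 C, a number that 28.3% of 21901 genes with a reference transcript reach somewhere. The Ppp3cb stretch (chr14:20546384-20546407, minus strand) is coding and holds 20 C, reached by 1.51% of genes. The Ptpn21 stretch (chr12:98677284-98677307, minus strand) also holds 20 C and lies in the 3' UTR. The Ptpn3 stretch (chr4:57193747-57193770, minus strand) and the Ppp1r18 stretch (chr17:35875222-35875245, plus strand) are in 3' UTRs and hold 18 C each, reached by 8.07% of genes. The Ppp1r13l stretch (chr7:19361230-19361253, plus strand) and the Ppp1r14b stretch (chr19:6975094-6975117, plus strand) are in 5' UTRs and hold 17 C each, reached by 15.9%, although these genes lie at opposite ends of the ranking. The Ppp4c stretch (chr7:126792255-126792278, minus strand, 5' UTR) holds 15 C, reached by 44.4%. The Ppp1ca stretch (chr19:4195045-4195068, plus strand, coding) holds 14 C, reached by 62.4%. The Ppp2cb stretch (chr8:33599733-33599756, plus strand, 5' UTR) holds 13 C, reached by 78.7% of genes.

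Libraries held 38764925 to 52735957 counts. The IP libraries detected 17471 to 21306 genes and the total RNA libraries 21805 to 22625, and the IP libraries varied more (biological coefficient of variation 42.6%, against 12.1% in total RNA). All 12 beta cell markers were tested, 7 as enriched and 5 as depleted, beside 28.9% and 33.6% of all genes tested. Their summed level was 6422 to 7877 CPM in the IP and 21918 to 31409 in total RNA. Most of the latter was Ins2 and Iapp, at means of 10471 and 14161 CPM, against 1953 and 1461 CPM in the IP. Among the enriched markers, Pdx1 and Nkx6-1 had means of 925 and 993 CPM in the IP and 323 and 368 CPM in total RNA. Of 8 markers of other islet cells, 6 were tested, of which 2 were depleted and 4 not called. The summed level of the list was 128 to 175 CPM in the IP and 139 to 174 in total RNA, with Hhex at 0. Most of that sum was Gcg, at 145 ± 24.6 CPM in the IP and 151 ± 17.3 CPM in total RNA (SD, n = 3 each). The labels call the libraries of each group a triplicate without saying that they came from separate cultures, so the p-values reflect library-to-library spread, which could be technical only.

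Counts were fitted across all genes, and a gene with a Benjamini-Hochberg adjusted p under 0.05 in edgeR's quasi-likelihood test was called enriched or depleted in the IP. Levels are CPM, counts scaled to a common library size with TMM factors, given for libraries 1, 2 and 3 in that order, and log2 fold changes are IP minus total RNA, ± SE. Enrichment is relative, because no spike-in was analysed. Of 129 members, 125 had at least 1 read and 109 passed the filter on low counts. The 20 others had at most 69 reads in all libraries together, and 4 of them (Ppp1r14d, Ppp1r17, Ppp1r3a and Ppp3r2) had 0.

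Among the 109 tested members, 38 (34.9%) were enriched, 35 (32.1%) were depleted and 36 were not called. Of all 16929 genes tested, 28.9% were enriched and 33.6% were depleted, so the shares of the whole family lay near the background. The median log2 fold change was 0.06 for the members and −0.07 for all genes, and the members ran from −2.73 for Ppp1r14b to 2.95 for Ptpn23. With library totals alone in place of TMM factors, the median of all genes moved by −0.43, that of the members became −0.38, and 24 members were enriched and 49 depleted, beside 3447 enriched and 7278 depleted genes of all 16929. In 42 members every IP library lay above every total RNA library, and in 39 every IP library lay below, against 32.2% and 39.3% of all genes. In the remaining 28 the groups overlapped.

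The classes differed in their counts, although the difference between classes was not tested. Under the main settings, counts for these classes and for the smaller groups below stand beside 28.9% enriched and 33.6% depleted of all genes tested. Of 22 catalytic serine/threonine genes tested, 8 were enriched and 12 depleted, with a median log2 fold change of −0.45. Of 55 regulatory genes tested, 15 were enriched and 19 depleted, around a median of −0.16. Of 31 tyrosine phosphatase genes tested, 15 were enriched and 4 depleted, and their median was 0.39. When only library totals were used, 5 catalytic genes were enriched and 12 depleted, 8 regulatory genes were enriched and 27 depleted, and 11 tyrosine phosphatase genes were enriched and 10 depleted, with a tyrosine median of −0.042. An offset for gene length was fitted to each gene's deviation from its mean level over all libraries. In each library it removes the smooth trend of that deviation on summed exon length. Any difference between IP and total RNA that follows this length is removed with it. The offset left 9 tyrosine phosphatase genes enriched and 10 depleted around a median of 0.078, and 6 catalytic genes enriched and 11 depleted around one of −0.21. It moved the regulatory median to 0.022, while 5367 of 16908 genes were enriched and 5413 depleted. Without total RNA library 2, and likewise without total RNA library 3, 5 catalytic genes were enriched in place of 8.

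**Figure D1:**
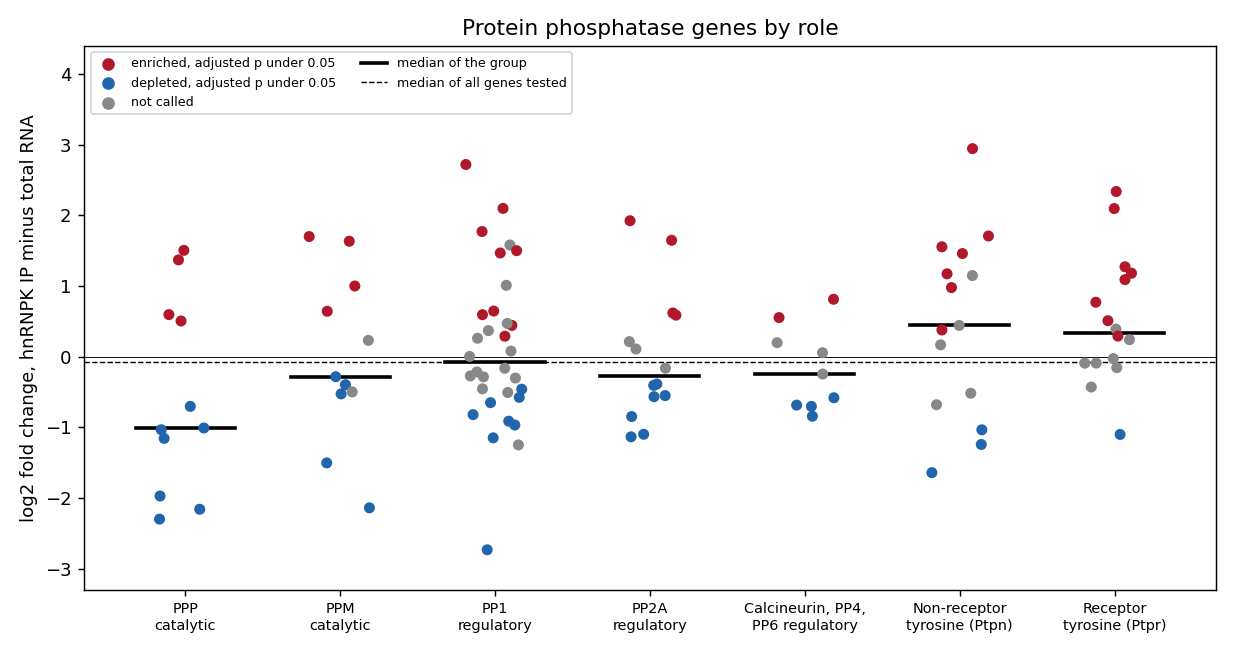
Log2 fold change of each tested member, hnRNPK IP minus total RNA, by role, with the call of each gene in colour, the group median as a bar and the median of all genes tested as a dashed line. The PPP catalytic group has no uncalled member and a median of −1.01, while both tyrosine phosphatase groups have medians above 0.

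All 11 catalytic subunits of the PPP family passed the test, 4 as enriched and 7 as depleted, beside 28.9% and 33.6% of all genes. Closely related enzymes lay on opposite sides. Highest was Ppp3cb (ENSMUSG00000021816.11, chromosome 14, 20499364 to 20546573), which encodes the beta form of the calcineurin catalytic subunit and carries the coding stretch of 20 C shown above. It had 342, 348 and 359 CPM in the IP and 129, 121 and 119 CPM in total RNA. The libraries of each group lay close together, and the groups were far apart, with a log2 fold change of 1.51 ± 0.08 (edgeR adjusted p = 3.08e-06). Ppp6c (ENSMUSG00000026753.5, chromosome 2, 39194354 to 39226451), the catalytic subunit of PP6, had 307, 352 and 260 CPM in the IP and 132, 110 and 113 CPM in total RNA. It was 2.59-fold higher in the IP (edgeR adjusted p = 5.04e-05), and its lowest IP library was still well above the highest total RNA library.

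Ppp1cb and Ppp3ca were called enriched while their groups overlapped. Ppp1cb, the beta form of the PP1 catalytic subunit (ENSMUSG00000014956.15, chromosome 5, 32458843 to 32517433), had 571, 712 and 440 CPM in the IP and 449, 336 and 354 CPM in total RNA. IP library 3 lay below total RNA library 1, and the log2 fold change was 0.60 ± 0.19 (edgeR adjusted p = 0.0229). Ppp3ca, the alpha form of calcineurin's catalytic subunit, had 167, 189 and 134 CPM in the IP and 143, 99.3 and 104 CPM in total RNA, with the same overlap. Neither call held with library totals alone, where the log2 fold changes were 0.16 for Ppp1cb and 0.07 for Ppp3ca, nor with the offset for gene length, where they were 0.05 and 0.02. Both calls were also lost without IP library 1, without total RNA library 2 and without total RNA library 3, and Ppp3ca also without IP library 2. Ppp1cb shares 17.5% of its exonic bases with Gm43312 on the same strand, which adds doubt to its level, share and ratios.

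At the depleted end stood Ppp1ca (ENSMUSG00000040385.6, chromosome 19, 4192065 to 4195420), the alpha form of the PP1 catalytic subunit. It had 63.6, 55.1 and 88.0 CPM in the IP and 326, 347 and 346 CPM in total RNA, which are means of 68.9 ± 17.1 and 339 ± 11.9 CPM (SD, n = 3 each). Every IP library held far less of it than any total RNA library, and it was 4.92-fold lower in the IP (edgeR adjusted p = 1.34e-05). Ppp4c (ENSMUSG00000030697.7, chromosome 7, 126785866 to 126792496), the catalytic subunit of PP4, had 22.0, 10.9 and 21.4 CPM in the IP and 75.5, 85.3 and 82.1 CPM in total RNA. It was 4.47-fold lower (edgeR adjusted p = 0.000138), and IP library 2 was the lowest of the 6.

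Ppp2cb, the beta form of the PP2A catalytic subunit (ENSMUSG00000009630.10, chromosome 8, 33599625 to 33619441), had 17.8, 16.0 and 17.1 CPM in the IP and 67.9, 66.3 and 65.6 CPM in total RNA. The libraries of each group lay close together, and the log2 fold change was −1.97 ± 0.10 (edgeR adjusted p = 2.71e-06), or −0.99 with the offset for gene length. Its alpha counterpart Ppp2ca had 122, 103 and 138 CPM in the IP and 189, 203 and 197 CPM in total RNA, with a log2 fold change of −0.70 ± 0.12 (edgeR adjusted p = 0.00101). On the opposite strand 39.9% of the exonic bases of Ppp2ca are shared with the noncoding gene 9430098F02Rik, and since the strand setting of the counting is not given, their reads cannot be told apart. Ppp5c, a phosphatase with its own TPR domain, had 63.4, 52.4 and 74.0 CPM in the IP and 119, 138 and 132 CPM in total RNA (log2 fold change −1.03 ± 0.14, edgeR adjusted p = 0.000298). Ppp3cc, the gamma form of calcineurin's catalytic subunit, was scarce, with 5.05, 3.22 and 5.06 CPM in the IP and 8.5, 10.4 and 10.9 CPM in total RNA (log2 fold change −1.16 ± 0.24, edgeR adjusted p = 0.00367).

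Ppp1cc, the gamma form of the PP1 catalytic subunit, had 18.7, 12.4 and 17.6 CPM in the IP and 31.3, 32 and 34.8 CPM in total RNA, with a log2 fold change of −1.01 ± 0.17 (edgeR adjusted p = 0.00119). Its level is uncertain, because the near-identical pseudogene Ppp1ccb, which the rule leaves out, was counted at 47.3 ± 8.89 CPM in the IP and 118 ± 4.52 CPM in total RNA (SD, n = 3 each), more than Ppp1cc itself. With the reads of both added, a sum chosen after the data were seen, the mean levels were 63.5 and 151 CPM, a log2 ratio of −1.25, and the groups stayed apart.

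**Figure D2:**
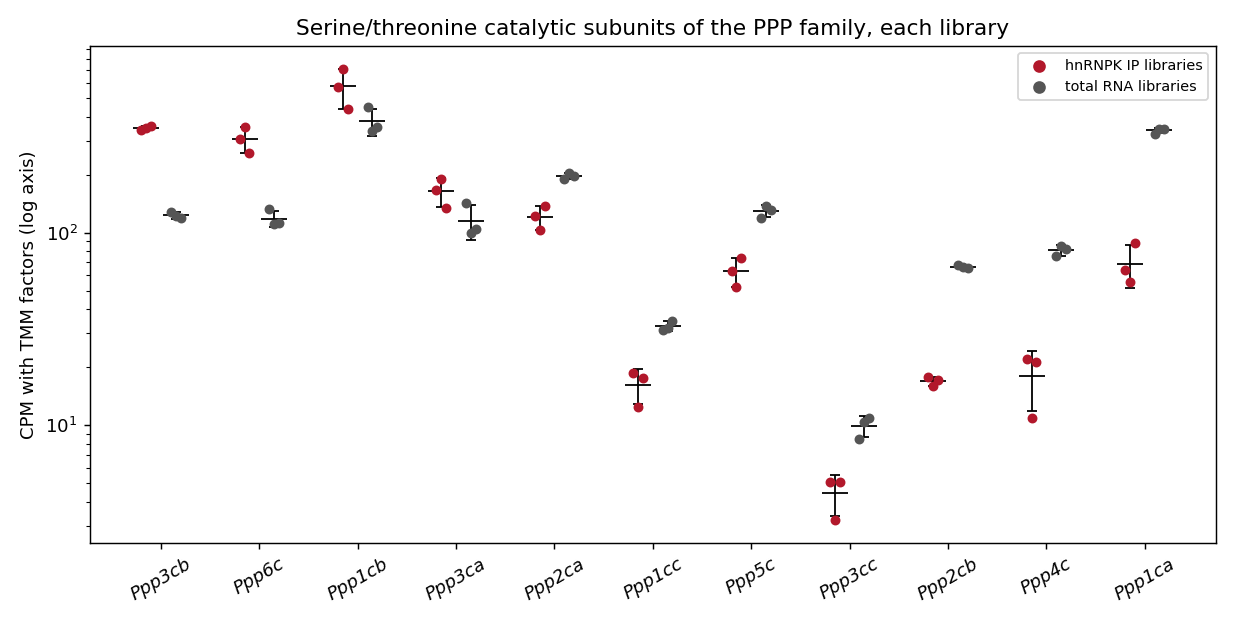
CPM of the 11 PPP catalytic subunits in each library on a log axis, with mean and SD bars for 3 hnRNPK IP and 3 total RNA libraries. From left to right the genes pass from Ppp3cb, 2.84-fold higher in the IP, to Ppp1ca, 4.92-fold lower, and the groups overlap for Ppp1cb and Ppp3ca.

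Of 12 metal-dependent PPM genes, 11 were tested, of which 4 were enriched and 5 depleted, beside 28.9% and 33.6% of all genes. Their median log2 fold change was −0.28. Ppm1l (ENSMUSG00000027784.10, chromosome 3, 69316861 to 69560802), a phosphatase of the endoplasmic reticulum membrane, had 344, 389 and 295 CPM in the IP and 123, 95.2 and 97.5 CPM in total RNA, 3.25-fold higher (edgeR adjusted p = 2.47e-05). Ppm1h, known for acting on Rab GTPases, had 146, 160 and 138 CPM in the IP and 52.2, 48.2 and 42.3 CPM in total RNA (log2 fold change 1.63 ± 0.11, edgeR adjusted p = 9.39e-06). Ppm1e, which acts on calmodulin-dependent kinases, had 77.2, 85.0 and 63.9 CPM in the IP and 39.0, 37.0 and 36.9 CPM in total RNA. In these 3 genes the groups were apart, with no IP library near the total RNA range. Ppm1k, a mitochondrial phosphatase of branched-chain amino acid breakdown, was the fourth enriched gene, at 0.64 ± 0.19, and its call was lost in several alternatives.

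Ppm1g, a nuclear phosphatase linked to splicing, had 61.3, 56.9 and 77.0 CPM in the IP and 169, 196 and 189 CPM in total RNA, and its log2 fold change was −1.50 ± 0.13 (edgeR adjusted p = 3.11e-05). Ppm1m had 3.87, 11.9 and 11.4 CPM in the IP and 38.5, 41.6 and 39.8 CPM in total RNA (log2 fold change −2.14 ± 0.37, edgeR adjusted p = 0.00131). IP library 1 held less than the other two, and all 3 stayed under the total RNA libraries. Ppm1a and Ppm1b, close relatives with broad roles in switching off stress kinase signals, were both slightly depleted. Ppm1a had 65.4, 77.3 and 69.0 CPM in the IP and 102, 105 and 97.7 CPM in total RNA, with a log2 fold change of −0.53 ± 0.10 that became −1.15 with the offset for gene length. Ppm1b had 97.0, 94.8 and 87.1 CPM in the IP and 118, 109 and 111 CPM in total RNA, with −0.28 ± 0.09 (edgeR adjusted p = 0.0224), a call that some alternatives ended. Ppm1d, the p53-induced phosphatase, was also depleted, at −0.40 ± 0.11, but not without any 1 of the total RNA libraries or with the length offset, where it was −0.056.

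PP1 is directed by the largest regulatory group, of which 32 of 40 genes were tested. Of these, 9 were enriched and 8 depleted, beside 28.9% and 33.6% of all genes, and 15 were not called. The median log2 fold change was −0.08. The highest was Ppp1r13l (ENSMUSG00000040734.14, chromosome 7, 19359749 to 19378533), which encodes the p53 inhibitor iASPP and carries the 5' UTR stretch of 17 C. It had 83.9, 81.3 and 97.1 CPM in the IP and 10.9, 14.5 and 14.5 CPM in total RNA. Its groups were far apart, 87.4 ± 8.47 against 13.3 ± 2.07 CPM (SD, n = 3 each), 6.59-fold higher in the IP (edgeR adjusted p = 3.75e-06). Its relative Ppp1r13b, which encodes the p53 activator ASPP1, was also enriched, at 0.44 ± 0.11, a call lost with library totals alone and without IP library 3.

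Of 3 genes whose products tie PP1 to actin, 2 were enriched. Ppp1r9b, which encodes spinophilin, had 601, 557 and 546 CPM in the IP and 173, 161 and 165 CPM in total RNA, with a log2 fold change of 1.77 ± 0.08 (edgeR adjusted p = 2.02e-06). Ppp1r18, which encodes phostensin, had 23.2, 17 and 19.7 CPM in the IP and 4.22, 5.62 and 4.11 CPM in total RNA (log2 fold change 2.10 ± 0.21, edgeR adjusted p = 5.47e-05). The third of these genes, Ppp1r9a, which encodes neurabin, had 39.5, 30.6 and 22.2 CPM in the IP and 26.5, 18.7 and 21.3 CPM in total RNA, with overlapping groups and no call. Of 5 tested genes for glycogen-targeting subunits, Ppp1r3e alone was called, at 59.1, 77.3 and 50.8 CPM in the IP and 26.6, 20.6 and 18.9 CPM in total RNA.

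Of 6 PP1 inhibitor genes tested, 2 were depleted and 4 were not called. Ppp1r14b (ENSMUSG00000056612.6, chromosome 19, 6974968 to 6977324), an inhibitor of PP1, was the lowest of all members, with 9.39, 4.09 and 8.73 CPM in the IP and 42.8, 51.2 and 54.1 CPM in total RNA. It was 6.65-fold lower in the IP (edgeR adjusted p = 9.63e-05), and its log2 fold change of −2.73 became −1.80 with the offset for gene length. Ppp1r2, or inhibitor-2, was depleted at −0.91 ± 0.21, and its processed pseudogenes, left out by the rule, held 7.74 CPM in the IP and 22.0 CPM in total RNA, so its own level is uncertain. With those reads added, again a choice made after seeing the data, its log2 ratio was −1.01. Ppp1r1a, which encodes inhibitor-1, was the second most abundant member per length in total RNA, at 472 ± 57.6 TPM, a unit scaled by exon length and library (SD, n = 3). It had 145, 104 and 189 CPM in the IP and 168, 216 and 216 CPM in total RNA, overlapping groups and no call (edgeR adjusted p = 0.0955). It turned to depleted with library totals alone, at −0.88, and to enriched with the offset for gene length, at 0.55.

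Myosin-targeting subunits went both ways. Ppp1r12c had 48.5, 36.4 and 57.9 CPM in the IP and 103, 105 and 108 CPM in total RNA (log2 fold change −1.15 ± 0.16, edgeR adjusted p = 0.00041), and Ppp1r12a and Ppp1r16a were depleted at −0.58 ± 0.14 and −0.46 ± 0.11. Ppp1r12b was enriched at 1.47 ± 0.09 (edgeR adjusted p = 5.31e-06), and its groups did not overlap. Ppp1r35, whose product acts in centriole formation, had 7.41, 9.92 and 6.29 CPM in the IP and 12.2, 16.3 and 17.6 CPM in total RNA. It was called depleted at −0.97 ± 0.23, but its value turned to 0.18 with the offset for gene length. The pair that returns eIF2alpha to its unphosphorylated form had values that depended on the scaling. The stress-induced Ppp1r15a (GADD34) had 83.5, 68.2 and 92.1 CPM in the IP and 69.8, 85.3 and 88.2 CPM in total RNA, with full overlap and a log2 fold change of 0.00 ± 0.14. It was depleted with library totals alone, at −0.43, and enriched with the offset for gene length, at 0.39. The constitutive Ppp1r15b (CReP) had 227, 236 and 197 CPM in the IP and 189, 174 and 177 CPM in total RNA. Its log2 fold change of 0.29 ± 0.10 passed (edgeR adjusted p = 0.0293), but the call was lost in 9 of 14 alternatives, and the value turned to −0.15 with library totals alone.

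PP2A regulatory genes were all tested, 14 of 14, of which 4 were enriched and 7 depleted, beside 28.9% and 33.6% of all genes. Their median log2 fold change was −0.27. All 4 genes of the B55 family, subunits that direct PP2A in mitotic exit and in the cytoskeleton, were depleted, and the 4 calls held under all 14 alternatives. With 4 genes, and 33.6% of all genes depleted, no trait of the B55 family is read from this count. Among the B55 genes Ppp2r2d had 33.8, 28.9 and 34.5 CPM in the IP and 65.2, 72.6 and 75.7 CPM in total RNA (log2 fold change −1.13 ± 0.11, edgeR adjusted p = 6.04e-05). Ppp2r2b had 7.77, 6.22 and 5.91 CPM in the IP and 13.4, 15.4 and 13.8 CPM in total RNA, at −1.10 ± 0.18. Ppp2r2a and Ppp2r2c differed less, at −0.41 ± 0.09 and −0.39 ± 0.08.

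The B56 family, which recognises a short motif in its substrates, split. Ppp2r5d (ENSMUSG00000059409.8, chromosome 17, 46682991 to 46705111) had 239, 224 and 258 CPM in the IP and 71.5, 77.3 and 81.2 CPM in total RNA. The groups were far apart, and the log2 fold change was 1.65 ± 0.10 (edgeR adjusted p = 4.57e-06). Ppp2r5b was enriched, at 147, 135 and 163 CPM in the IP and 92.9, 103 and 101 CPM in total RNA, a call lost with library totals alone. Ppp2r5c had 106, 87.8 and 102 CPM in the IP and 180, 171 and 182 CPM in total RNA (log2 fold change −0.85 ± 0.10, edgeR adjusted p = 0.000135). Ppp2r5a was depleted too, at 94.4, 81.3 and 77.8 CPM in the IP and 127, 125 and 123 CPM in total RNA, and Ppp2r5e was not called.

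Ppp2r3a (ENSMUSG00000043154.15, chromosome 9, 101105084 to 101251795), a calcium-binding B-type subunit, was the highest PP2A gene, with 253, 299 and 226 CPM in the IP and 78.0, 62.1 and 64.6 CPM in total RNA. It was 3.80-fold higher (edgeR adjusted p = 1.15e-05), and its log2 fold change of 1.93 became 1.31 with the offset for gene length. The main scaffold gene Ppp2r1a had 356, 327 and 425 CPM in the IP and 222, 254 and 246 CPM in total RNA, enriched at 0.62 ± 0.12 with TMM factors (edgeR adjusted p = 0.00192) and not called with library totals alone. The second scaffold gene Ppp2r1b had 46.2, 45.3 and 47.0 CPM in the IP and 42.1, 43.2 and 43.1 CPM in total RNA, a difference that did not pass. It shares 22.2% of its exonic bases with Sik2 on the opposite strand.

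Calcineurin, PP4 and PP6 regulators gave 2 enriched and 4 depleted genes of 9 tested, beside 28.9% and 33.6% of all genes, with a median of −0.25. Ppp3r1, the calcineurin B subunit that binds calcium, had 275, 268 and 305 CPM in the IP and 162, 158 and 162 CPM in total RNA (log2 fold change 0.81 ± 0.08, edgeR adjusted p = 7.05e-05). It shares 14.3% of its exonic bases with Wdr92 on the same strand. Of 5 regulators of PP4, 3 were depleted and 2 were not called. Ppp4r1 had 32.4, 23.8 and 31.8 CPM in the IP and 56.6, 49.1 and 52.2 CPM in total RNA, and Ppp4r2 had 47.1, 52.5 and 41.4 against 83.2, 71.3 and 75.1 CPM. Their log2 fold changes were −0.84 ± 0.14 and −0.70 ± 0.12. The PP6 regulators differed among themselves. Ppp6r3 was enriched, at 175, 160 and 152 CPM in the IP and 115, 108 and 108 CPM in total RNA, a call lost with both library totals alone and the length offset. Ppp6r2 was depleted, at 48.6, 53.7 and 42.1 against 85.3, 71.8 and 75.1 CPM. Ppp6r1, at 211, 205 and 235 against 185, 190 and 192 CPM, was not called.

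Tyrosine phosphatases of the cytoplasm, the Ptpn genes, gave 7 enriched and 3 depleted of 15 tested, beside 28.9% and 33.6% of all genes. Their median log2 fold change was 0.44. Ptpn23 (ENSMUSG00000036057.11, chromosome 9, 110385082 to 110408213), which encodes HD-PTP, a partner of the ESCRT complexes in endosomal sorting, was the highest of all members. It had 693, 760 and 721 CPM in the IP and 88.7, 98.8 and 94.8 CPM in total RNA. The means were 725 ± 33.6 and 94.1 ± 5.07 CPM (SD, n = 3 each), 7.71-fold higher in the IP, with a log2 fold change of 2.95 ± 0.09 (edgeR adjusted p = 1.23e-06). The most C-rich stretch of its transcript held 16 C, the same number as the median member tested.

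Next were Ptpn21 and Ptpn3, which encode proteins with a FERM domain, a domain that binds membrane proteins and lipids. Ptpn21 had 125, 161 and 120 CPM in the IP and 45.6, 39.1 and 39.5 CPM in total RNA (log2 fold change 1.71 ± 0.14, edgeR adjusted p = 2.09e-05). Ptpn3 had 221, 242 and 218 CPM in the IP and 77.9, 77.1 and 76.5 CPM in total RNA (log2 fold change 1.56 ± 0.08, edgeR adjusted p = 3.41e-06). Both carry the 3' UTR stretches shown above, and in both the groups were far apart. Ptpn4 and Ptpn14 were enriched at 1.46 ± 0.17 and 1.17 ± 0.21. Ptpn13, which also has a FERM domain, had 9.45, 22.1 and 17.2 CPM in the IP and 29.2, 24.9 and 24.1 CPM in total RNA and was not called (edgeR adjusted p = 0.0678), and with the offset for gene length it was depleted at −1.28.

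Ptpn11, which encodes SHP2, a positive element of growth factor signalling, had 396, 401 and 359 CPM in the IP and 325, 279 and 284 CPM in total RNA. It was enriched at 0.38 ± 0.09 (edgeR adjusted p = 0.0082), a value that turned to −0.057 with library totals alone, and the call was also lost with the length offset and without IP library 1. Its relative Ptpn6, which encodes SHP-1 and is best known from blood cells, had 3.78, 4.16 and 9.08 CPM in the IP and 16.1, 18.3 and 18.9 CPM in total RNA, with a log2 fold change of −1.64 ± 0.34 (edgeR adjusted p = 0.00318). Of 12 immune cell markers, 5 were tested, of which Cd79a, under 1 CPM on average in each group, was enriched and 4 were not called, and the summed level of the list was 3.76 to 7.41 CPM in the IP and 8.88 to 12.1 CPM in total RNA, most of the latter from Coro1a. Cd3e and Cd3g had 0 reads, and Ptprc, the member that encodes the leukocyte phosphatase CD45, had 3 reads in the IP and 10 in total RNA. The part of other cell types in the Ptpn6 value was not tested.

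The insulin receptor phosphatase gene Ptpn1 (PTP1B) had 95.3, 85.1 and 98.3 CPM in the IP and 81.9, 83.0 and 83.2 CPM in total RNA, and its log2 fold change of 0.17 ± 0.09 did not pass (edgeR adjusted p = 0.143). Its closest relative Ptpn2, which acts on JAK and STAT proteins, had 9.69, 12.1 and 8.03 CPM in the IP and 20.5, 25.6 and 24.3 CPM in total RNA, a log2 fold change of −1.24 ± 0.19 (edgeR adjusted p = 0.000635). Ptpn12, or PTP-PEST, had 9.72, 14.4 and 13.1 CPM in the IP and 25.2, 27.0 and 24.1 CPM in total RNA. The groups were apart, and it was the third depleted gene of the group, at −1.03 ± 0.17.

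Receptor tyrosine phosphatases, the Ptpr genes, gave 8 enriched and 1 depleted of 16 tested, beside 28.9% and 33.6% of all genes, with a median of 0.34. Ptprt (ENSMUSG00000053141.16, chromosome 2, 161521990 to 162661147), a homophilic adhesion receptor, had 270, 376 and 273 CPM in the IP and 69.2, 59.0 and 53.5 CPM in total RNA, 5.06-fold higher (edgeR adjusted p = 1.03e-05). Its log2 fold change of 2.34 became 1.72 with the offset for gene length. Ptprj, which encodes DEP-1, had 217, 279 and 130 CPM in the IP and 59.8, 41.9 and 44.5 CPM in total RNA (log2 fold change 2.10 ± 0.28, edgeR adjusted p = 0.00028). Its IP libraries ranged widely, and the lowest of them was still above all total RNA libraries.

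Ptprb, which encodes the endothelial phosphatase VE-PTP, was near the limit of detection, at 2.33, 2.06 and 2.17 CPM in the IP and 1.14, 0.891 and 0.678 CPM in total RNA, and was called enriched at 1.27 ± 0.40 (edgeR adjusted p = 0.0229). Of 8 endothelial markers, 2 were tested and neither was called, with a summed level of 1.67 to 3.79 CPM in the IP and 2.37 to 3.08 CPM in total RNA. The part of such cells was not tested, and the call was lost with the offset for gene length, where the value was 0.65, with library totals alone, with no filter on low counts, with a replicate block, and without total RNA library 2 or 3. Ptprd and Ptprg, at 1.09 ± 0.19 and 0.77 ± 0.11, also lost their calls with that offset. Ptprr was enriched at 0.51 ± 0.15, a call lost with library totals alone, at 0.077, with the length offset, at 0.36, and with no filter on low counts.

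The granule proteins Ptprn and Ptprn2, known as IA-2 and phogrin and without classical phosphatase activity, were both among the 4 most abundant members per length in total RNA. Ptprn (ENSMUSG00000026204.15, chromosome 1, 75247027 to 75264502) ranked highest of all members per length in total RNA, at 1582 ± 50.7 TPM (SD, n = 3). It had 2016, 1780 and 2075 CPM in the IP and 2114, 2215 and 2208 CPM in total RNA. Every IP library lay slightly below every total RNA library, but the log2 fold change of −0.15 ± 0.08 did not pass (edgeR adjusted p = 0.128), and with library totals alone it was −0.59 and called depleted. Ptprn2 (ENSMUSG00000056553.14, chromosome 12, 116485720 to 117276849), at 226 ± 11.3 TPM in total RNA, had 1385, 1445 and 1463 CPM in the IP and 600, 655 and 637 CPM in total RNA. It was 2.27-fold higher in the IP (edgeR adjusted p = 5.88e-06), with no IP library near the total RNA range.

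Ptpra, an activator of Src family kinases, was the only depleted receptor gene under the main settings. It had 31.1, 32.5 and 28.9 CPM in the IP and 66.7, 65.2 and 66.6 CPM in total RNA, with a log2 fold change of −1.10 ± 0.09 (edgeR adjusted p = 2.66e-05). Its relative Ptpre had under 1 CPM in every library and was not called. Of the LAR-type receptors, which act at synapses and cell contacts, Ptprd had the value of 1.09 given above, and Ptprf and Ptprs had smaller ones. Ptprf had 476, 514 and 416 CPM in the IP and 420, 367 and 362 CPM in total RNA and was called at 0.29 ± 0.11 with overlapping groups (edgeR adjusted p = 0.0426), a value that turned to −0.14 with both library totals alone and the length offset. That call was lost in 9 of 14 alternatives. Ptprs had 192, 244 and 145 CPM in the IP and 250, 187 and 182 CPM in total RNA and was not called, and with the offset for gene length it was depleted at −0.80. Ptprk, at 8.83, 8.68 and 10.8 CPM against 11.8, 12.5 and 13.8 CPM, was not called but was depleted with the same offset, at −1.06.

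**Figure D3:**
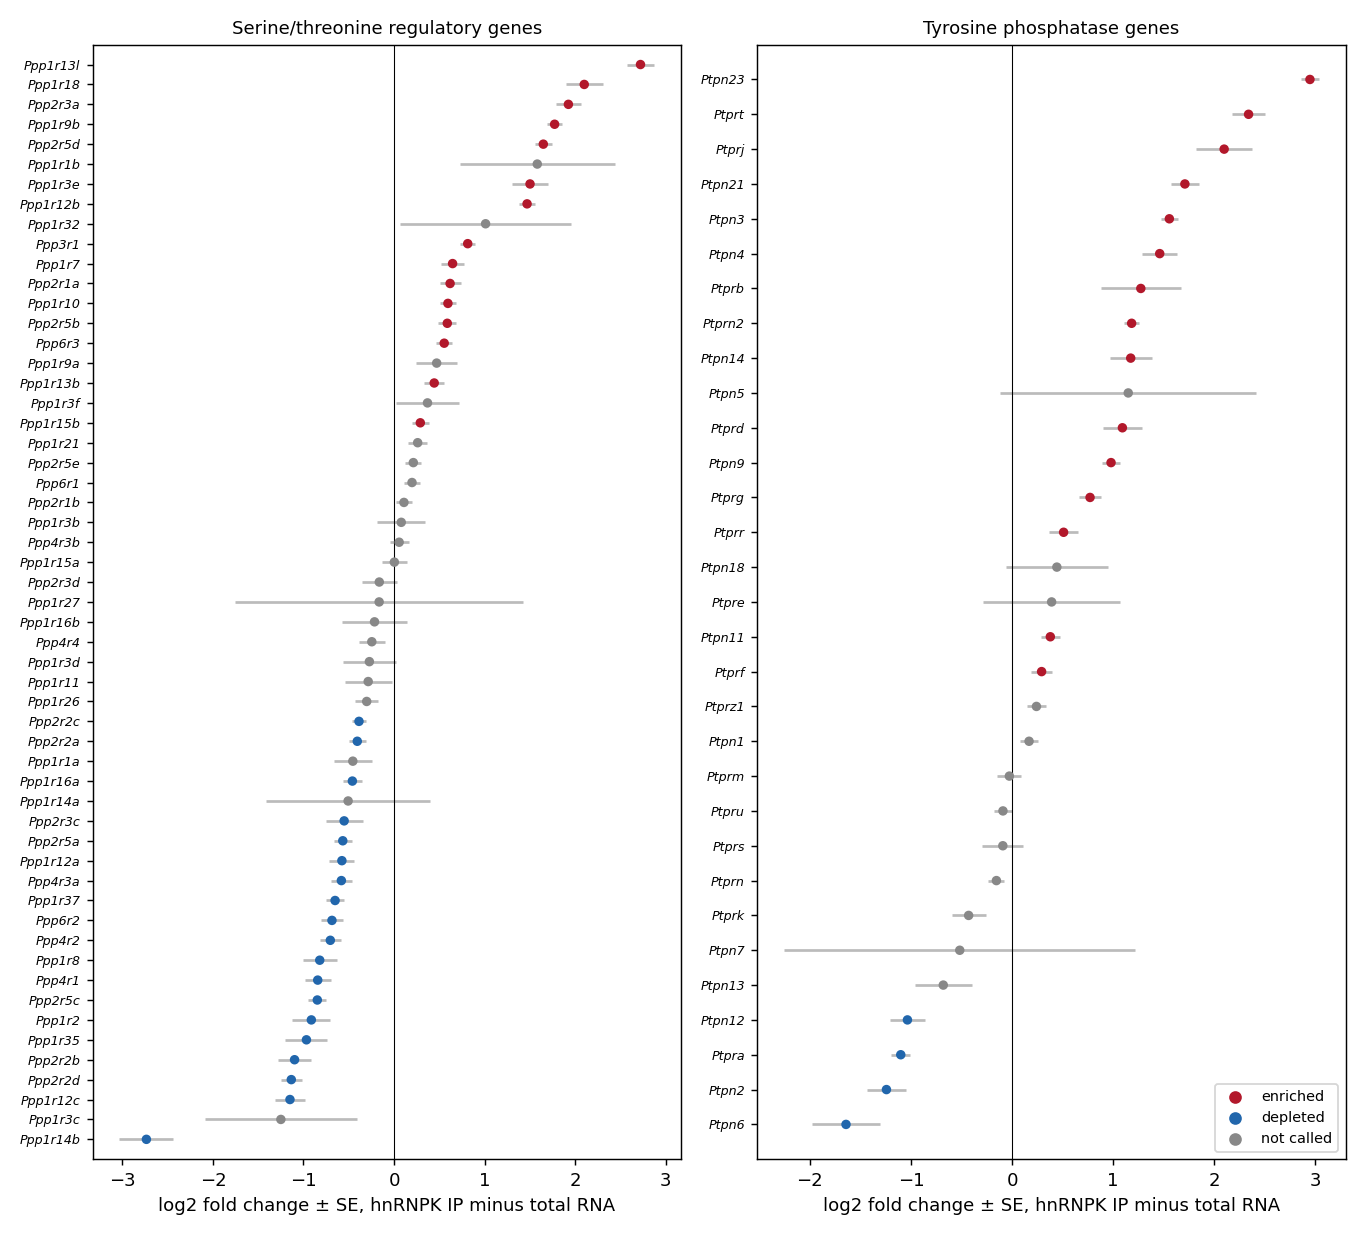
Log2 fold change ± SE, hnRNPK IP minus total RNA, for each tested regulatory gene (left) and tyrosine phosphatase gene (right), coloured by call. Ppp1r13l at 2.72 and Ppp1r14b at −2.73 bound the regulatory genes, and Ptpn23 at 2.95 and Ptpn6 at −1.64 bound the tyrosine phosphatase genes.

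Within families the shares of some genes differed between IP and total RNA, and those of others hardly did. Shares are of the family's summed TPM, which divides reads by exon length. Ppp1ca made up 75.2 ± 2.87% of PP1 catalytic TPM in total RNA and 32.7 ± 9.87% in the IP, and Ppp1cb 19.4 ± 3.04% and 61.7 ± 10.9% (SD, n = 3 each). The leading PP1 gene in the IP was therefore Ppp1cb in all 3 libraries, and in total RNA Ppp1ca in all 3. With the pseudogene reads given to Ppp1cc, the shares of Ppp1ca were 63.1 ± 2.50% and 28 ± 8.04%, and the order of Ppp1ca and Ppp1cb was the same. Among calcineurin catalytic genes, Ppp3cb made up 48.6 ± 2.37% in total RNA and 69.0 ± 3.44% in the IP, and Ppp3cc 11.7 ± 2.34% and 2.60 ± 0.686%. In PP2A the share of Ppp2ca was 36.7 ± 1.16% in total RNA and 58.1 ± 2.81% in the IP. Within the B56 family Ppp2r5d made up 22.9 ± 0.907% in total RNA and 47.3 ± 0.660% in the IP, and Ppp2r5c 21.8 ± 0.830% and 7.98 ± 0.433%. The share of Ptprn2 in the granule pair was 12.5 ± 0.231% in total RNA and 26.6 ± 1.77% in the IP. Ppp2r1a made up 91.4% of PP2A scaffold TPM in total RNA and 93.7% in the IP, and Ppp2r2c 57.1% and 63.7% of B55 TPM. Among PP6 regulators Ppp6r1 made up 65.9% in total RNA and 66.4% in the IP, and Ppp6r2 14.1% and 7.73%. The shares of Ppp2r5b in B56, 29.8% and 29.4%, and of Ppp1cc in PP1, 5.34% and 5.66%, hardly moved.

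Ratios of 15 related pairs, each taken within a library as log2 of CPM plus 0.5, do not depend on the scaling between libraries apart from that added constant. In 14 pairs the IP and total RNA libraries did not overlap. No such count was made for other pairs of genes, and single genes were apart in 32.2% of cases with the IP higher and 39.3% with the IP lower, so nothing particular to these pairs is read from it. With 3 libraries against 3, a two-sided exact permutation test cannot give less than p = 0.10, which all 14 reached, or 0.107 after Benjamini-Hochberg adjustment over the 15 pairs, so none passed 0.05. The ratio of Ppp4c to Ppp6c, catalytic subunits of the PP2A-like enzymes, differed most. It was −3.77, −4.95 and −3.57 in the IP and −0.80, −0.37 and −0.46 in total RNA, 11.8-fold lower in the IP. The ratio of Ppp1ca to Ppp1cb was −3.15, −3.68 and −2.32 in the IP and −0.46, 0.04 and −0.03 in total RNA, 7.46-fold lower. Ptprn to Ptprn2 was 0.54, 0.30 and 0.50 in the IP and 1.82, 1.76 and 1.79 in total RNA, 2.53-fold lower.

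With the offset for gene length the differences of these 3 ratios were −3.52, −1.84 and −0.86. The offset was built on summed exon lengths, which are alike for Ppp4c and Ppp6c, at 4281 and 4444 bases. It could therefore hardly move their ratio, although their reference transcripts differ, at 1400 and 4115 bases. Ppp2ca to Ppp2cb, with exon lengths of 7490 and 1469 bases, differed by 1.23 and turned to −0.052 with the offset. Ppp3ca to Ppp3cb differed by −0.99, Ptpn6 to Ptpn11 by −2.04, Ptpn1 to Ptpn2 by 1.38, Ppp2r5b to Ppp2r5a by 1.15 and Ppp2r1a to Ppp2r1b by 0.50. Ppm1a to Ppm1b differed by −0.24 and Ptprf to Ptprs by 0.40. Ppp1ca to Ppp1cc and Ppp1cb to Ppp1cc, at −1.31 and 1.59, carry the pseudogene doubt on Ppp1cc, and Ptpra to Ptpre, at −1.29, rests on the few reads of Ptpre. Only Ppp1r15a to Ppp1r15b overlapped, with a difference of −0.29 (two-sided exact permutation p = 0.2).

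**Figure D4:**
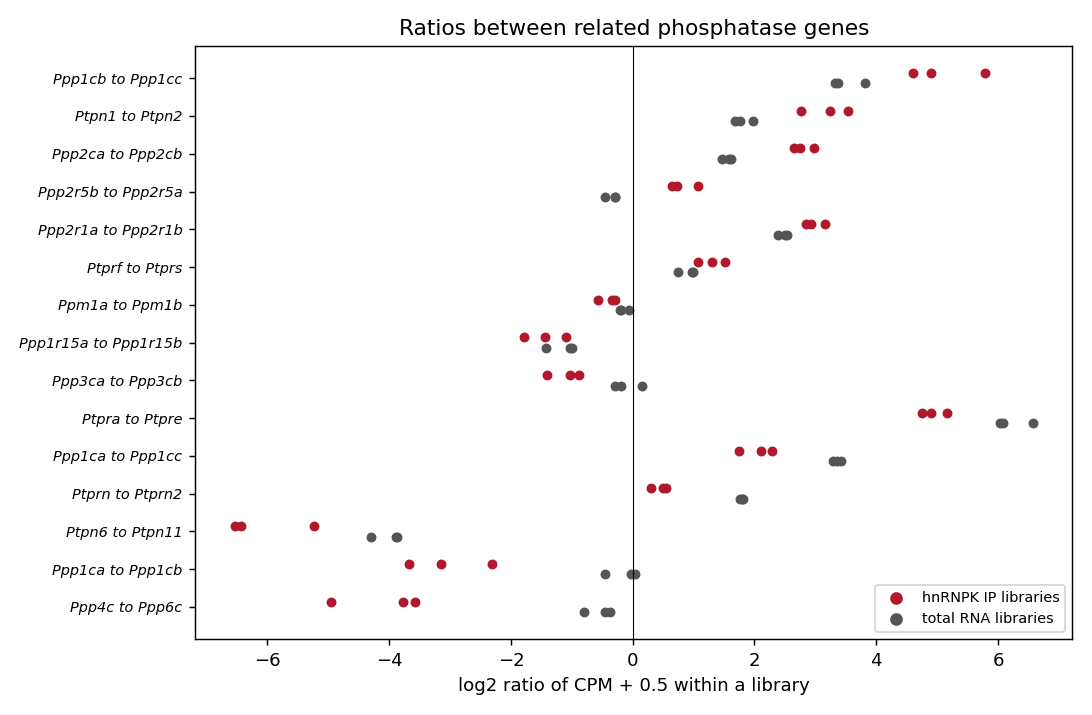
Log2 ratio of CPM plus 0.5 between related phosphatase genes within each of 3 hnRNPK IP and 3 total RNA libraries. The groups are apart in 14 of 15 pairs, from Ppp4c to Ppp6c, lower by 3.55 in the IP, to Ppp1cb to Ppp1cc, higher by 1.59, and they overlap for Ppp1r15a to Ppp1r15b.

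Long transcripts were more often enriched, among members as among all genes. Spearman's rho of log2 fold change and reference transcript length was 0.44 over 109 members and 0.49 over 13481 genes with a reference transcript. It was 0.74 over 22 catalytic, 0.21 over 55 regulatory and 0.44 over 31 tyrosine phosphatase genes. These are descriptions across genes, which share libraries and are not independent. Of the 37 shortest members (385 to 2983 bases), 6 were enriched and 19 depleted. Of the 36 longest (4810 to 12082 bases), 20 were enriched and 4 depleted. Short transcripts at the depleted end included Ppp4c (1400 bases), Ppp2cb (1469 bases) and Ppp1ca (1473 bases), and long ones at the enriched end included Ptprt (12082 bases) and Ppm1l (9417 bases). There were exceptions. Ppp1r13l, at 3130 bases, and Ptpn23, at 5346 bases, lay above other members of like length, and Ptpra, at 5325 bases, lay below.

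Members at both ends kept their calls with the offset for gene length, which was built on summed exon length and not on the reference transcript. For Ppp4c these are 4281 and 1400 bases, so its short reference transcript was not adjusted for. Ptpn23 was 2.83 ± 0.08, Ppp1r13l 2.95 ± 0.13, Ppp4c −2.08 ± 0.22, Ppp1ca −1.80 ± 0.11 and Ppp6c 1.43 ± 0.14 on the log2 scale. Median transcript length was 5094 bases for the enriched and 2899 for the depleted members, and the median 3' UTR was 2099 and 572 bases. Over all genes the median transcript lengths were 4238 and 2221 bases and the median 3' UTRs 1963 and 560 bases.

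**Figure D5:**
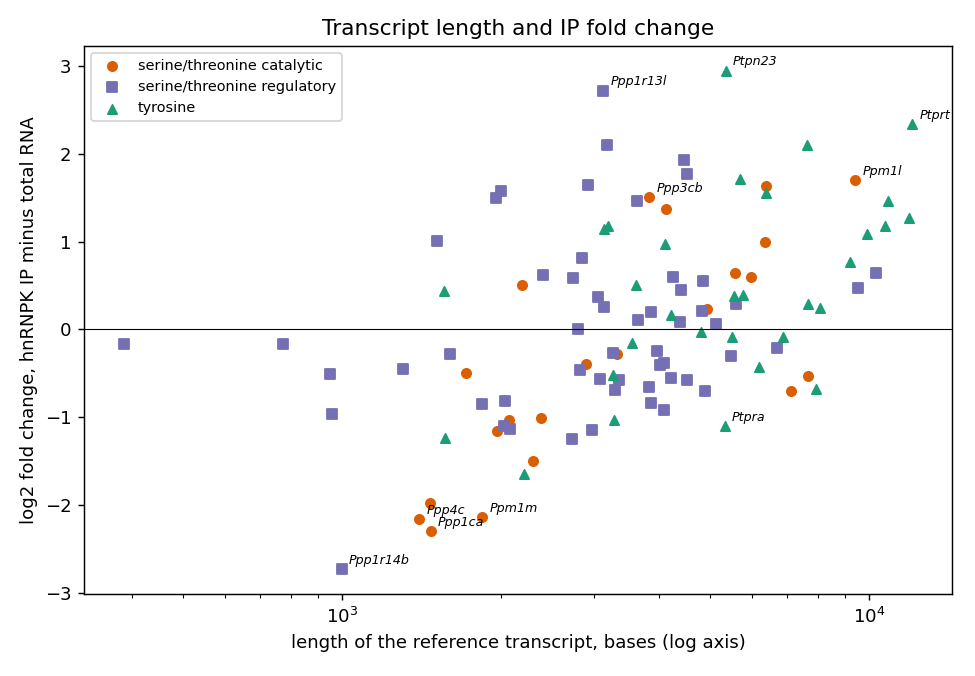
Length of the reference transcript in bases, on a log axis, against log2 fold change, hnRNPK IP minus total RNA, for the tested catalytic, regulatory and tyrosine phosphatase genes. Catalytic genes climb with length (Spearman's rho 0.74, 22 genes), and Ptpn23 and Ppp1r13l lie above and Ptpra below other members of like length.

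C-rich stretches were found among enriched and depleted members alike. A stretch of 24 bases with at least 17 C was present in 15 of 38 enriched members (39.5%), 11 of 35 depleted members (31.4%) and 7 of 36 uncalled members (19.4%). Over all genes such a stretch was present in 37.9% of enriched and 8.56% of depleted genes and in 20.3% of all. The depleted members with such stretches included Ppp1r14b and Ppm1g. The most C-rich stretch lay in the 5' UTR in 22 of 35 depleted members and in 14 of 38 enriched members. Over all genes with a reference transcript it did so in 1806 of 4906 depleted and 1188 of 4231 enriched genes. Where stretches tied, the most 5' one was taken, which favours the 5' UTR in these counts. Spearman's rho of log2 fold change and C content was 0.07 over the 109 members and 0.15 over 13481 genes with a reference transcript. By class it was −0.58 over 22 catalytic, 0.24 over 55 regulatory and −0.016 over 31 tyrosine phosphatase genes. The count of C is a description of the annotated transcript and not of a binding site.

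Other genes of the pathway were taken from 2 lists. Of 28 regulators and partners of PP2A, calcineurin or PP1 with other symbols, 27 were tested. Those of PP1 were Phactr1 to Phactr4. Of the 27 genes, 15 were enriched and 6 depleted, against 28.9% and 33.6% of all genes. Their median log2 fold change was 0.54, and that of all genes −0.07. The counts became 10 and 10 when only library totals were used, with a median of 0.11, and 15 and 7 with the length offset. Which genes form this list and the next was decided with earlier results known, and neither count shows a trait of its list. Highest were Phactr4 and Phactr1, PP1- and actin-binding proteins, at 2.54 ± 0.09 and 2.09 ± 0.12, and the calcineurin target Nfatc1 at 2.21 ± 0.13. Nfatc1 had 34.3 ± 2.52 CPM in the IP and 7.39 ± 0.206 CPM in total RNA (SD, n = 3 each). Lowest were Phactr3 at −2.56 ± 0.61, the PP2A-binding Igbp1 at −2.49 ± 0.29 and the PP2A methyltransferase gene Lcmt1 at −1.93 ± 0.29. The calcineurin regulators Rcan1, Rcan2 and Rcan3 were each enriched, at 0.37 ± 0.11, 0.71 ± 0.12 and 0.54 ± 0.09, and were named after their values were seen.

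Of 55 other protein phosphatase genes, 50 were tested, of which 27 were enriched and 12 depleted (median 0.38), beside the same shares of all genes. Without TMM factors these counts were 20 and 15, around a median of −0.054, and with the length offset 29 and 10. The MAP kinase phosphatase gene Dusp7 was highest at 2.16 ± 0.29, followed by Ctdsp1, a small phosphatase of the RNA polymerase II tail, at 2.15 ± 0.16 and the cofilin phosphatase gene Ssh1 at 2.12 ± 0.35, with Dusp18 next to it at 2.12 ± 0.08. Lowest were the small cytoplasmic tyrosine phosphatase gene Acp1 at −2.96 ± 0.19, the mitochondrial phosphatase gene Ptpmt1 at −2.59 ± 0.44 and Ilkap at −2.37 ± 0.21. Acp1 had 9.40 ± 2.32 CPM in the IP and 73.4 ± 6.05 CPM in total RNA (SD, n = 3 each).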

How the data were processed

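RNA of 3 hnRNPK immunoprecipitations and 3 total lysates of Min6 cells was sequenced. The deposited tables, 1 for each library, hold unnormalized whole-number counts of reads per gene. Reads were aligned to mm10 with TopHat2 and counted with featureCounts, per the submitters' processing notes. Tool versions, annotation release, strand setting and handling of multiply aligned reads were not given in the sources used here. Of counts from 1 to 20, 58.6% to 68.7% were even in each library, so halved counts were tried. No pair of libraries in a group agreed within sampling noise (chi-square per degree of freedom 6.08 to 113).

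From these counts, 53274 of 53379 gene identifiers matched GENCODE release M21 (GRCm38, the build of mm10), which supplied symbols, gene classes, coordinates and transcripts. The test was that of edgeR 4.0.16 under R 4.3.3, with TMM factors, filterByExpr (minimum count 10, minimum total 15), glmQLFit and glmQLFTest on the group alone, and Benjamini-Hochberg adjustment over 16929 genes. SE is the absolute log2 fold change divided by the root of F. TPM used the summed exon length. The reference transcript was the principal one, or else the basic or longest one. DESeq2 1.42.0 was an alternative among 14. The procedure was also run on simulated counts with the same spread in both groups and few changed genes. Here the spread was 42.6% in the IP and 12.1% in total RNA and most genes were called. The simulation therefore cannot show how the test behaves on these data. The rule for genes with full values took all PPP catalytic genes, both members of 15 pairs and the 3 highest and 3 lowest of each role group with a mean of at least 1 CPM, and other members are named in counts. Ppp1r1a, Ppp1r3e, Ppp1r9a and Ptpn13 are given in full outside that rule and were chosen after their values were seen. Members, lists and rule were chosen with earlier results of these data known. Library depth bounds counting error only, not the differences between preparations.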

Additional observations from a re-analysis of the deposited data

How the results depend on the processing

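Of 38 enriched members, 21 kept their call under all 14 alternatives, and of 35 depleted members, 31 did. Of 36 members not called, 13 stayed uncalled under all of them and 23 were called in at least 1. The absence of a call therefore depended often on the processing. The rule gave 59 genes in full. Of their 826 alternative values, 747 kept direction and side of the threshold, 46 no longer passed, 11 newly passed and 22 changed sign. Ppp1r1a, Ppp1r3e, Ppp1r9a and Ptpn13, given in full outside the rule, are not in this tally. Of the enriched calls, 14 were lost with library totals alone, 11 with the offset for gene length and 8 when a library was left out. Library totals alone gave 24 enriched members, 5 enriched catalytic, 8 enriched regulatory and 10 depleted tyrosine phosphatase genes, and medians of −0.38 over all members and −0.042 over tyrosine genes. The log2 fold change there was −0.43 for Ppp1r15a, −0.15 for Ppp1r15b, −0.32 for Ppp2r1b, −0.23 for Ppp6r1, −0.27 for Ptpn1, −0.057 for Ptpn11, −0.042 for Ptpre and −0.14 for Ptprf, all of which changed sign. With the length offset there were 9 enriched and 10 depleted tyrosine genes, a regulatory median of 0.022, and values of 0.18 for Ppp1r35, −0.10 for Ppp2r1b, −0.080 for Ptpre and −0.14 for Ptprf. The ratio of Ppp2ca to Ppp2cb became −0.052 and that of Ppp1r15a to Ppp1r15b 0.22. Without a filter on low counts Ppp1r15a was −0.029. Leaving out 1 library at a time gave 5 to 8 enriched catalytic genes. The median of all members was −0.038 without IP library 1, Ppp1r15a was −0.038, −0.15 and −0.057 without IP library 1, IP library 3 and total RNA library 1, and Ptprs ranged from −0.30 without IP library 2 to 0.11 without total RNA library 1, with 0.010 without IP library 3. Apart from the construction of each alternative, the cause of these shifts was not tested.

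The labels do not say whether same-numbered libraries share a lysate. Their deviations had correlations of 0.000874, −0.0709 and 0.12, not all of them over 0.1, and no pairing was assumed. With a replicate block 35 members were enriched and 33 depleted, and with the block and the offset for gene length 28 and 40. The latter fit gave 5 enriched catalytic genes, 8 enriched and 10 depleted tyrosine genes, a median of −0.032 over all members, and values of 0.12 for Ppp1r35, −0.10 for Ppp2r1b, −0.023 for Ptpre and −0.14 for Ptprf. Depth limits the members under 1 CPM, and the 20 untested members were not assessed.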

Other observations

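Among the 38 enriched members, IP library 2 held the highest of the 3 IP values in 21, IP library 3 the lowest in 22, and total RNA library 1 the highest of the 3 total RNA values in 29. Among the 35 depleted members, IP library 2 held the lowest IP value in 18 and total RNA library 1 the lowest total RNA value in 19. Over 90 members with a mean of at least 10 CPM, the coefficient of variation had a median of 12.2% in the IP and 5.75% in total RNA. The pseudogene Ppp4r1l-ps, outside the rule, had 310, 371 and 515 reads in the IP and 1024, 830 and 854 in total RNA.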
